A study of Mus musculus with 4 samples.

Results

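The 54 genes described here encode the machinery that brings a new protein into the endoplasmic reticulum (ER), attaches N-linked sugars to it and packs it into vesicles. They were chosen as a list of gene symbols, from the signal recognition particle to the vesicle coats and cargo receptors. All 54 were found among the 13792 genes of the RNA files. They were sorted into 8 steps of secretion. RNA was measured in 2 libraries of B cells. Both libraries came from naive B cells of the inbred mouse strain C57BL/6 that were infected with a retrovirus and kept in culture with anti-IgM and anti-CD40, antibodies that mimic contact with antigen and with helper T cells. The RVKM-Empty virus, the control, carried no insert. The RVKM-Ascl2 virus carried Ascl2, a basic helix-loop-helix transcription factor. There was 1 library per group and no uninfected library, so no value has a replicate error and every difference is one between these libraries. How many mice gave cells and whether infected cells were purified are points not given in the labels. The 2 chromatin samples of the series, from germinal centre B cells, were not analysed here.

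A protein with a signal sequence is recognised on the ribosome by the signal recognition particle (SRP), docked at the SRP receptor and threaded through the Sec61 channel. The signal peptidase removes the signal sequence, and the oligosaccharyltransferase transfers a sugar tree that was built beforehand on the lipid dolichol. COPII coats bud vesicles from the ER towards the Golgi, and COPI coats return escaped ER proteins. Activated B cells that become plasma cells are known to enlarge this whole apparatus for antibody secretion.

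The control values summed to 750692 and the Ascl2 values to 763932. Sums of such values do not measure sequencing depth, which is unknown. Ascl2 itself was 0.0809 and 29.4. All 8 B cell markers were present (such as Cd79a at 665 and 492). Of the T cell markers 2 of 9 were listed, summing to 2.16 and 1.59, and Cd3e, Cd3d and Cd3g were not listed. Differences are given as the log2 ratio, log2((Ascl2 + 1)/(control + 1)), which understates the differences of low genes. Over the 12283 genes that reached 1 in either library (the genes kept), its median was −0.01.

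The sequence around the start sites is given first for 5 genes, those that hold a motif tied to the control of ER genes. The 8 letters TGACGTGG, the core of the unfolded protein response element, were searched on both strands in windows from 250 bases before to 50 after annotated starts. The sequences were taken from RefSeq on GRCm38.p6, where 43 of the 54 genes had 47 windows. The letters were found in 6 of the 47 windows (12.8%), against 222 of all 32851 windows (0.676%) and 95 of the 10995 windows of genes kept (0.864%). The 6 windows belong to 5 genes, since both Arf1 windows hold the same site. All 5 encode parts of the COPI or COPII machinery, and none of the 29 windows of the other steps held the letters. Coverage was unequal. All 10 COPII and 5 COPI genes had a window, so every gene without one belongs to the other steps. Windows covered 3 of 5 signal peptidase genes, 4 of 6 sugar donor genes and 2 of 4 cargo receptor and retrieval genes. The 30 bases around each site follow, on the strand of the gene, with the match in capitals. It reads CCACGTCA where it lies on the opposite strand.
Arf1: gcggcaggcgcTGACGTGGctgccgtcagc
Copb1: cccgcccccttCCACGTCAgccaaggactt
Copb2: tcccggaagttCCACGTCAgtgggttggcc
Sec23a: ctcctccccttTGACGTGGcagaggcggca
Sec24d: gcccgggcgccTGACGTGGcactagcaacc

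The Arf1 bases lie at chr11:59228228-59228257 on the minus strand, and those of Copb1 at chr7:114254690-114254719 on the minus strand. Those of Copb2 lie at chr9:98563713-98563742 on the plus strand, those of Sec23a at chr12:59011993-59012022 on the minus strand, and those of Sec24d at chr3:123267459-123267488 on the plus strand. The match begins 28 and 7 bases before the annotated start in Copb1 and Copb2, and 6 bases after it in Sec23a. Arf1 has 2 annotated starts, and the match begins 84 bases before the inner one and 21 bases after the outer one, where the gene's span begins. In Sec24d the match begins 26 bases before a start that lies inside the gene's span and not at its outer end. The log2 ratios of the 5 genes ran from −0.04 in Arf1 to 0.43 in Sec24d, so the genes with the letters did not share 1 level of difference. The E-box CAGCTG, of the kind that Ascl factors bind, was found in 2 of the 47 windows, those of Srp9 and Sec24a (4.26%, against 16.3% of all windows). The longer ER stress response element and its type II form were found in none of the 47 windows, and in 0.119% and 0.0365% of all windows. A match describes the letters in a window and does not show binding.

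Across the 54 genes, differences between the libraries were small and more often upward. The log2 ratio was above 0 in 38 of 54 (70.4%), against 48.4% of all genes kept. The median was 0.10. Of the 54, none was at least 2-fold higher (1.53% of all genes) and Dpm1 alone was at least 2-fold lower (0.716% of all genes). At the lower limit of 1.5-fold, Sec61g was higher (5.01% of all genes) and Dpm1 and Dpm3 were lower (4.31% of all genes). Counts of members past a fold were therefore near the background, and 51 of 54 lay between the 1.5-fold limits. When the Ascl2 library was rescaled by its sum without immunoglobulin genes and Pcdh15, 46 of 54 members and 59.7% of all genes lay above 0. Pcdh15, at 481 in control and 26003 in Ascl2 cells, is left out there for its share of that library. The summed value of the 54 genes was 3772 in control and 4056 in Ascl2 cells, or 0.502% and 0.531% of all values. In bulk RNA, a larger share of one kind of cell and more RNA per cell cannot be told apart. The values' unit is not named, so levels of different genes may not be comparable and differences are read between libraries. Sums over genes, and shares of them, weight each gene by its deposited value and carry that limit.

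**Figure D1:**
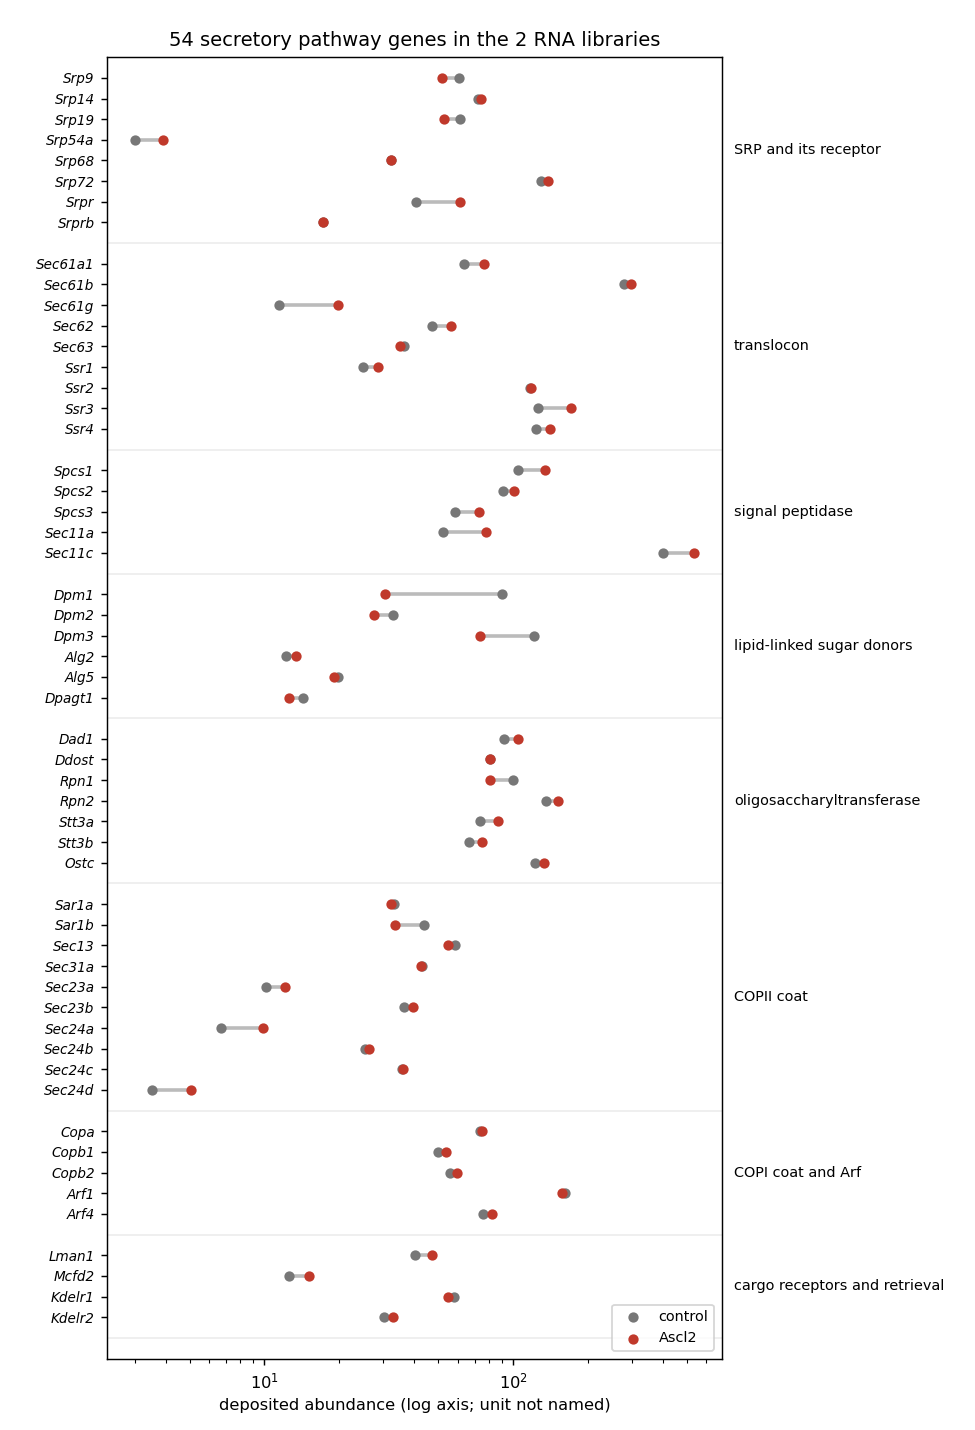
Deposited abundance (log axis, unit not named) of each of the 54 genes in control (grey) and Ascl2 (red) cells, 1 library each, ordered by step of secretion. All 5 signal peptidase genes lie further right with Ascl2, all 3 Dpm genes lie further left, and most other pairs of points nearly coincide.

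Genes of targeting to the ER lay on both sides of 0, and the highest of them was a receptor gene. Srpr, the SRP receptor subunit that binds the particle, was 40.7 in control and 61.0 in Ascl2 cells (log2 ratio 0.57), just under the 1.5-fold limit. Srprb, the membrane-anchored subunit of the same receptor, was 17.3 and 17.2, and its ratio lay above 0 under each of the 3 rescalings. The 2 receptor genes thus differed in their ratio. Among the protein subunits of the particle, Srp72 was 129 and 138, and its partner Srp68 was 32.2 and 32.2. Srp9, which binds the Alu part of the particle's RNA, was 60.6 and 51.7, while Srp14, with which it pairs, was 72.3 and 74.5. Srp19, which helps assemble the particle, was 61.1 and 52.8. Log2 ratios of these subunits of the particle ran from −0.23 in Srp9 to 0.09 in Srp72. Srp54a encodes the subunit that recognises the signal sequence. It was 3.02 and 3.92 (0.29), and it has a close copy, Srp54b, at 7.78 and 8.50. How reads were split between the copies is uncertain. The median of the step was 0.02, with 5 of 8 above 0.

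Copies of the RNA part of the particle had lower ratios than any of its protein subunits. Rn7s1, Rn7s2 and Rn7s6 are annotated as copies of the 7SL RNA, the scaffold of SRP. Rn7s1 was 31.0 in control and 8.94 in Ascl2 cells (log2 ratio −1.69), Rn7s2 was 48.6 and 22.4 (−1.09), and Rn7s6 was 5.91 and 1.27 (−1.61). All 3 were at least 2-fold lower in the Ascl2 library (0.716% of all genes). They are near-identical in sequence, so they do not count as 3 independent values. How reads were split between them and other copies is uncertain, and the labels do not say how short RNA was captured.

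The translocon, the channel and the proteins around it, was higher in 8 of 9 genes, with a median of 0.20. Sec61a1, the pore itself, was 63.3 in control and 76.4 in Ascl2 cells (0.27). Sec61b, a small subunit of the pore complex, was 279 and 299 (0.10). Sec61g, the other small subunit, was 11.4 and 19.8 (0.74), the highest ratio of the 54 and the 369th highest of the 12283 genes kept. The 3 subunits of the channel were thus all higher, by unequal amounts. Of the auxiliary factors that serve post-translational entry, Sec62 was 47.1 and 56.4 and Sec63 was 36.4 and 35.0. Sec63 was the 1 gene of the step below 0, and it lay above 0 under the rescaling without immunoglobulin genes and Pcdh15. The translocon-associated protein (TRAP) complex, which assists many signal sequences, was higher in its 4 genes by differing amounts. Ssr3 was 127 and 171 (0.43), Ssr1 was 24.9 and 28.7, Ssr4 was 123 and 141, and Ssr2 was 117 and 118 (0.02).

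The signal peptidase genes were the step with the highest median, 0.36, and all 5 were higher in the Ascl2 library. Sec11a, a catalytic subunit, was 52.3 in control and 77.8 in Ascl2 cells (log2 ratio 0.56). Sec11c, the alternative catalytic subunit, was 403 and 533 (0.40). Both catalytic subunits were therefore higher. Spcs1, a small accessory subunit, was 105 and 135 (0.36). Spcs3, an accessory subunit needed for cleavage, was 58.4 and 73.2 (0.32), and Spcs2, a further accessory subunit, was 91.2 and 101.0 (0.15). None of the 5 reached 1.5-fold. All 5 stayed above 0 under each of the 3 rescalings. Their summed value was 1.30 times as high with Ascl2 (710 and 919), against 1.08 times for all 54 genes. Sec11c alone made up most of that sum in both libraries. The Spcs1 span overlaps 470 bp of Glt8d1, which was 7.43 and 8.16.

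Genes that make the lipid-linked sugar donors went the other way, with 5 of 6 below 0 and a median of −0.21. That median was −0.13 under the rescaling without immunoglobulin genes and Pcdh15, −0.08 with the running median of genes of like genomic span taken out, and the mean was −0.44. Of the 6 genes, 3 encode dolichol-phosphate mannose synthase, which loads mannose onto dolichol for N-glycans and GPI anchors. Dpm1, the catalytic subunit, was 90.6 in control and 30.5 in Ascl2 cells, a fold of 2.97 without the pseudocount (log2 ratio −1.54). This was the 18th lowest ratio of the 12283 genes kept. Dpm3, which tethers Dpm1 to the ER membrane, was 122 and 73.4 (−0.72), the 266th lowest. Dpm2, which stabilises Dpm3, was 32.9 and 27.5 (−0.25). All 3 subunits were thus lower in the Ascl2 library, also under each of the 3 rescalings. The other genes of the step were close to level. Dpagt1, which starts the sugar tree, was 14.3 and 12.6 (−0.18), Alg5, which makes dolichol-phosphate glucose, was 19.8 and 19.0 (−0.05), and Alg2, a mannosyltransferase, was 12.2 and 13.4 (0.13). Alg5 lay above 0 under the rescaling without immunoglobulin genes and Pcdh15.

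Of the 54 genes, 15 overlap another gene in RefSeq, and in 4 cases that gene is in the files too. Dpm1 is one of the 4, with its whole span overlapped. Dpm1 (chromosome 2, 168209048 to 168230379, mm10) lies wholly inside the span of Gm20716 (168180965 to 168230379), which RefSeq lists as a long noncoding RNA ending at the same base. Gm20716 is in the files too, at 19.6 in control and 24.9 in Ascl2 cells (log2 ratio 0.33), the opposite direction. The part that read splitting between the 2 has in the Dpm1 difference was not tested. On the other side, Mocs3, a gene of molybdenum cofactor synthesis, starts 242 bp away and was 5.42 and 3.69 (−0.45). Both Mocs3 and Gm20716 were chosen for naming after their values were seen. The bases between the annotated ends of Dpm1 and Mocs3 are shown because they adjoin the gene with the largest difference, at chr2:168230380-168230621 on the minus strand, with the end nearest Dpm1 last. None of the 4 motifs searched lies in this stretch.
Dpm1: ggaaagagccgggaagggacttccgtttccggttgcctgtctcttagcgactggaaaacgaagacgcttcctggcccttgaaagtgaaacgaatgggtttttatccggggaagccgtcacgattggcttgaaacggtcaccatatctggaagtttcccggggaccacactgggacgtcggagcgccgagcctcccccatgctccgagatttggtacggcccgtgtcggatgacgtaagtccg

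The oligosaccharyltransferase, which joins the finished sugar tree to the protein, was slightly higher in 6 of 7 genes, with a median of 0.17. Its alternative catalytic subunits were both slightly higher. Stt3a, which works beside the translocon, was 73.9 in control and 86.9 in Ascl2 cells (0.23), and Stt3b, which can act later, was 66.2 and 75.1 (0.18). The structural subunit Rpn2 was 135 and 152 (0.17), Dad1 was 92.0 and 105 (0.19), and Ostc, found in the Stt3a form of the enzyme, was 123 and 133 (0.12). Ddost, counted among the 6, was level at 80.7 and 80.8. Rpn1 was the exception among the 7, at 100.3 and 80.8 (−0.31). No gene of this step reached 1.5-fold.

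**Figure D2:**
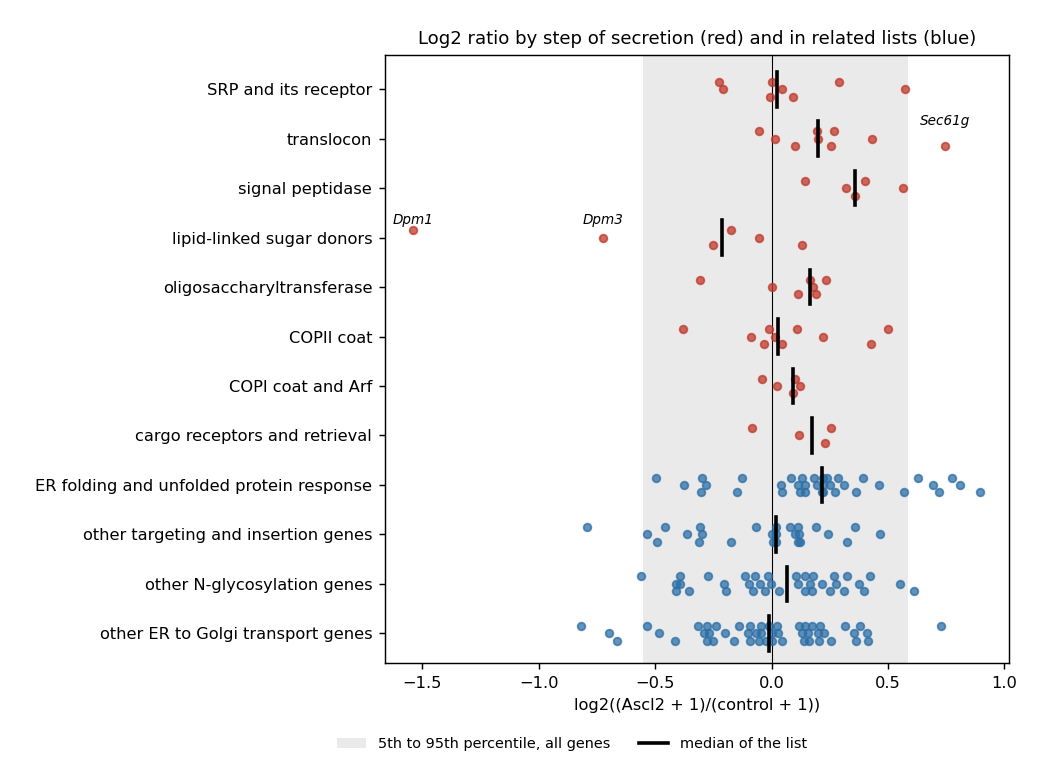
Log2 ratio of each gene (points) and the median of each list (black bars), for the 8 steps of secretion (red) and 4 related lists (blue); the grey band spans the 5th to the 95th percentile of all 12283 genes kept. The signal peptidase points all lie right of 0 and inside the band, while Dpm1, Dpm3 and Sec61g are the 3 members outside it.

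The COPII coat was close to level as a step (median 0.03, 6 of 10 above 0), with its members spread on both sides. Sar1a and Sar1b are small GTPases that start coat assembly. Sar1a was 33.1 in control and 32.4 in Ascl2 cells, and Sar1b was 44.0 and 33.6 (−0.38). The inner coat genes Sec23a and Sec23b were 10.2 and 12.0 (0.22), and 36.5 and 39.4 (0.11). The outer coat genes Sec13 and Sec31a were 58.4 and 54.9, and 42.9 and 42.6. The 4 Sec24 genes encode the subunit that selects cargo, and their ratios differed. Sec24a was 6.71 and 9.89 (0.50) and Sec24d was 3.52 and 5.08 (0.43), whereas Sec24b was 25.4 and 26.2 (0.04) and Sec24c was 35.6 and 36.0 (0.01). The Sec24 genes thus fell into a higher and a level pair. The higher pair, Sec24a and Sec24d, had the lowest deposited values of the step. With a pseudocount of 5 their log2 ratios were 0.35 and 0.24, so the split rests on low values. Sar1a, Sec13 and Sec31a lay above 0 under at least 1 rescaling.

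Genes of the return route were nearly level (COPI median 0.09), and those of cargo capture and retrieval had a median of 0.17, with 3 of 4 above 0. The COPI coat genes Copa, Copb1 and Copb2 were 73.9 and 75.0, 49.9 and 53.5, and 55.7 and 59.4 in control and Ascl2 cells. The GTPase gene Arf1, which recruits the coat, was 162 and 157, and its relative Arf4 was 75.4 and 82.3. All 5 had log2 ratios from −0.04 to 0.12, the narrowest range of the 8 steps. Lman1 and Mcfd2 encode the partners of a cargo receptor. Lman1 was 40.2 and 47.2 (0.23), and Mcfd2 was 12.5 and 15.1 (0.25), so the partners had similar ratios. The receptors that retrieve ER proteins carrying a KDEL signal were 58.0 and 54.7 for Kdelr1 and 30.3 and 33.0 for Kdelr2. Arf1 and Kdelr1 lay above 0 under the rescaling without immunoglobulin genes and Pcdh15.

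Some members lie beside each other in the genome, and their ratios were alike in 1 pair and opposite in another. Alg2 and Sec61b are adjacent on chromosome 4 with 293 bp between their spans, and their log2 ratios were 0.13 and 0.10. Sec24a and Sar1b are adjacent on chromosome 11 with 6501 bp between them, and theirs were 0.50 and −0.38. The 250 bases before the Sec61b start, which lie wholly between the Alg2 and Sec61b spans, are shown as the stretch the first pair shares, at chr4:47474411-47474660 on the plus strand, with the Sec61b end last. None of the 4 motifs searched lies in it.
Sec61b: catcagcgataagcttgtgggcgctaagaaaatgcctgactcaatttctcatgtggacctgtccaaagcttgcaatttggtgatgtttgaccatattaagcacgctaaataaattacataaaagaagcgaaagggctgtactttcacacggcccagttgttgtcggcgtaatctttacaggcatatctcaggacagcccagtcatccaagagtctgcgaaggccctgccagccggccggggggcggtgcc

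Other genes of the same pathways, from lists that hold none of the 54, were more evenly spread. Among 36 other N-glycosylation genes, 19 were above 0 (median 0.07), 1 was at least 1.5-fold higher and none lower. That gene was Alg8, a glucosyltransferase of the sugar tree, at 9.44 in control and 14.9 in Ascl2 cells. Ost4, the smallest oligosaccharyltransferase subunit, was 96.4 and 65.0. Among 26 other targeting and insertion genes, 16 were above 0 (median 0.02), and Emc8 of the ER membrane complex was the 1 gene past 1.5-fold, at 47.7 and 27.1. Among 49 other ER to Golgi transport genes, 24 were above 0 (median −0.01), 1 was at least 1.5-fold higher and 3 were lower. Mia3, which helps export large cargo, was 6.13 and 10.8, and the lower genes were Trappc2l (17.3 and 9.36), Yif1b (51.4 and 31.4) and Ergic3 (71.1 and 44.5). None of these lists had a gene past 2-fold. Of all genes kept, 5.01% were at least 1.5-fold higher and 4.31% lower. At 2-fold these shares were 1.53% and 0.716%.

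ER folding and unfolded protein response genes had a higher median than the 54, at 0.22, and 29 of 36 were above 0. Of the 36, 6 were at least 1.5-fold higher and none lower, against 5.01% and 4.31% of all genes kept. Fkbp11, a folding enzyme gene of plasma cells, was 6.89 in control and 13.7 in Ascl2 cells. Ern1, the ER stress sensor that splices Xbp1 RNA, was 2.50 and 4.98, Derl3 of ER quality control was 11.9 and 21.6, and the co-chaperone gene Dnajb9 was 15.3 and 25.8. The lowest of the 7 genes below 0 was Fkbp2, at 81.9 and 57.7 (−0.50). The difference between this list and the 54 genes was not tested. Xbp1 was 238 and 272, Prdm1 was 3.10 and 9.23, and Sdc1 was 2.99 and 2.37. Among the products that pass through this route, 8 of 12 genes kept were above 0. Jchain was 113 and 301.2, Ighm was 4124 and 7629, and Igkc was 10479 and 17438. The 4 genes below 0 were Ighg1 (1189 and 946), Iglc3 (1126 and 988), Ighd (55.6 and 46.2) and Ighg2c (3.04 and 2.96). The summed value of 13 immunoglobulin constant region and joining chain genes was 1.57 times as high with Ascl2, against 1.08 times for the 54 secretory genes, and Ighm and Igkc made up most of that sum.

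**Figure D3:**
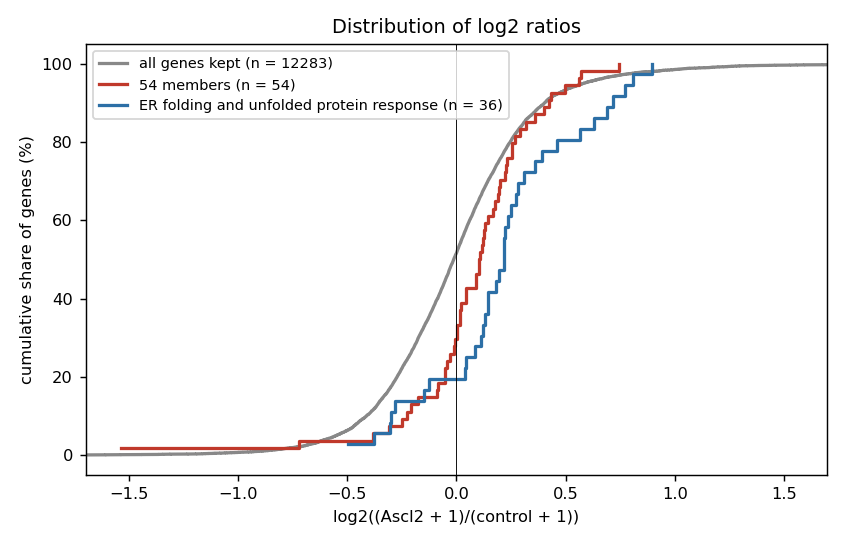
Cumulative share of genes (%) against the log2 ratio for all 12283 genes kept (grey), the 54 members (red) and 36 ER folding and unfolded protein response genes (blue). The red curve crosses 0 lower than the grey one, with 38 of 54 members above 0, and its left tail is Dpm1 and Dpm3.

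Other measures differed between the libraries as well, and their part in these results was not tested. Myeloid markers were listed for 8 of 12 genes, 7 of 8 were above 0, and they summed to 52.9 in control and 60.3 in Ascl2 cells. Lyz2 was 16.0 and 21.4, Fcer1g was 5.71 and 9.83, Tyrobp was 7.62 and 8.85, Adgre1 was 5.30 and 5.37 and Cd68 was 16.2 and 10.8. Cd14 was 1.18 and 1.63, Csf1r 0.780 and 1.06 and Vcan 0.0941 and 1.40. Itgam, S100a8, S100a9 and Mpo were not listed. Of 12 immediate early genes, which respond to stimulation or handling, 11 were below 0, and they summed to 983 and 535. Of 8 plasma cell markers kept, 7 were above 0, and the 9 listed summed to 1243 and 1565. Xbp1 and Jchain are among these markers and also stand in lists given above. Of the 8 B cell markers, 5 were below 0, and they summed to 2595 and 2381.

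Genes with a longer genomic span tended to have higher log2 ratios, with a Spearman rho of 0.19 over 11579 genes kept and of 0.14 over the 54 members. These are descriptions within 1 pair of libraries. Over the spans of the members, short genes lay lower on the whole. The members were therefore compared with a running median over 500 genes of like span. At the far shorter spans of the SRP RNA copies (median 299 bp), that running median was above 0, at 0.53. With the running median taken out, 36 of 54 members were above 0 and their median was 0.11. Srp68, Sec24b and Copa, each within 0.05 of 0, moved below 0, and Srprb moved above it. Spcs1, the shortest gene of the list at 1841 bp, went from 0.36 to 0.58, and Sec61g from 0.74 to 0.87. Dpm1 was −1.52, Dpm3 −0.64 and Dpm2 −0.08 after removal. The signal peptidase genes thus stayed above 0 in 5 of 5 and the Dpm genes below 0 in 3 of 3.

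**Figure D4:**
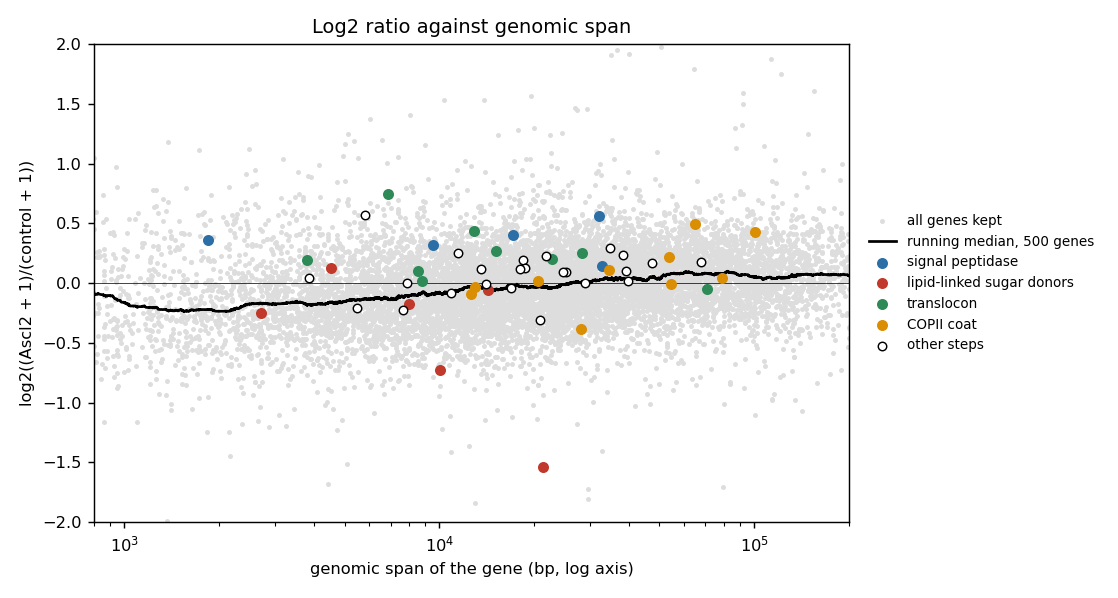
Log2 ratio against genomic span (bp, log axis) for genes kept (light grey, axes limited to the range shown), with the running median over 500 genes (black line) and the 54 members marked by step. Over the spans of the members, the black line lies below 0 at short spans and above 0 at long ones. The signal peptidase genes lie above it at every span, and Dpm1 at −1.54 lies far below it.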

How the data were processed

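RNA from 2 libraries of cultured mouse B cells was used, with groups taken from the sample titles. The authors deposited a signal for each gene, an abundance with decimals. Its unit (FPKM or TPM), the quantifier and the strandedness are not named in the labels or file headers. The submitters' processing notes name the build mm10 and Trim Galore, Bowtie2, Picard and MACS2, with no role. Depth is unknown, so no counting interval is given. With 1 library per group no test was run.

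Log2 ratios used a pseudocount of 1 and the 12283 genes that reached 1 in either library. Limits were 2-fold and 1.5-fold on that scale. Spans and start-site sequences came from RefSeq on GRCm38.p6, and 13752 identifiers had a symbol. The members, lists and motifs were chosen with earlier results of these data known. All members could be named, as could up to 4 genes per related list with the largest absolute ratios. Srp54b, Glt8d1, Gm20716, Mocs3, Pcdh15 and the marker genes were named outside that rule, after their values were seen. The same holds for the oligosaccharyltransferase subunits Tmem258, Tusc3, Krtcap2 and Magt1, and for Fkbp2, Ighg1, Iglc3, Ighd and Ighg2c. Protein sequences of paralogs were not used here. Alternatives were a pseudocount of 0.1 or 5, a minimum value of 5 or none, 3 rescalings of the Ascl2 values, removal of the span trend, and means. Steps were tested on simulated data. Python 3.11.15, pandas 2.3.3 and numpy 2.4.6 were used.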

Additional observations from a re-analysis of the deposited data

How the results depend on the processing

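The median log2 ratio of the 54 genes was 0.10 and stayed above 0 under every alternative run. It was 0.11 with a pseudocount of 0.1, 0.10 with a pseudocount of 5 and 0.10 with a filter of 5, which left 53 genes. It was 0.12 with the Ascl2 library rescaled to a median ratio of 1, 0.13 with the same upper quartile and 0.20 when rescaled by the sum without immunoglobulin genes and Pcdh15, which moved the median of all genes by 0.08. With the span trend removed it was 0.11, and the mean was 0.075. Genes at least 1.5-fold higher numbered 1 and became 2 with the median ratio set to 1, 3 with the same upper quartile, 3 with the sum rescaling and 2 with the span trend removed. The added genes were Srpr and Sec11a, which lie just under the limit. The counts past 2-fold, the count at least 1.5-fold lower and the count above 0 stayed within 1.5 times. No step's median changed sign, but some moved by over 1.5 times. The median of the lipid-linked sugar donors, −0.21, was −0.13 under the sum rescaling and −0.08 with the span trend removed, and its mean was −0.44. Under the sum rescaling the medians of the targeting, COPII, COPI, oligosaccharyltransferase and cargo steps were 0.11, 0.12, 0.18, 0.26 and 0.26. The means of the targeting, COPII, COPI and oligosaccharyltransferase steps were 0.07, 0.08, 0.06 and 0.08. The targeting median, 0.02, was also 0.04 with the median ratio set to 1, 0.05 with the same upper quartile, 0.07 with the span trend removed and 0.00057 with a filter of 5, which left out Srp54a. The COPII median, 0.03, was 0.05 with the same upper quartile. In all, 8 of the 54 genes changed sign under at least 1 rescaling, and 4 did so with the span trend removed. Those 4 were Srp68, Sec24b, Copa and Srprb. Replicate error was not measured, and low genes such as Srp54a and Sec24d are the least precise.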
